A study of Mus musculus with 12 samples.

Results

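Lymphocytes leave a small but readable trace in bulk tumor RNA, and 10 of their marker genes are described here: Cd3e, Cd3g, Cd4, Cd8a and Foxp3 for T cells, Nkg7 and Gzmb for natural killer (NK) and cytotoxic T cells, and Cd79a, Ms4a1 and Ighm for B cells. They are the 10 of 24432 rows whose mouse Ensembl identifiers map to these symbols, and no threshold on their values was used. Expression was measured as FPKM, the sequenced fragments per kilobase of transcript and scaled to the size of the library, in 12 mouse libraries in 4 groups of 3. Primary kidney tumors and lung metastases were dissected from Slc34a1CreERT2;Lats1/2flox/flox mice of mixed background, 4 months after 3 tamoxifen injections given at an age of 1 month. In these mice the Cre recombinase is expressed from Slc34a1, which encodes a phosphate transporter of the proximal tubule, and deletes the Hippo pathway kinase genes Lats1 and Lats2. Allograft tumors were dissected from NOD/scid mice 6 weeks after Lats1-/-;Lats2-/- cells had been placed under the renal capsule, in hosts aged 6 to 8 weeks. Proximal tubule cells were sorted by FACS from kidneys of adult Slc34a1CreERT2;Lats1c/c;Lats2c/+;RosaTomato mice. The labels describe them as wild type, and the sources used here do not give their tamoxifen treatment or the state of their alleles. All 4 groups therefore derive from Lats1 and Lats2 alleles that were engineered. The tumors were not sorted, so each tumor library can hold RNA from host immune cells and from the surrounding organ.

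T cells recognise antigen through a receptor whose alpha and beta chains reach the cell surface together with the CD3 chains, and the CD4 or CD8 coreceptor binds MHC class II or class I beside it. B cells carry a membrane antibody that signals through CD79a and CD79b, and plasma cells secrete antibody of a class given by the heavy chain constant gene in use. Receptor and antibody genes are assembled by V(D)J recombination, which the scid mutation in Prkdc blocks, so NOD/scid mice lack functional T and B cells while keeping macrophages, dendritic cells and NK cells of reduced activity. In mice CD4 and the CD8 alpha chain are also found on subsets of dendritic cells, and the CD8 beta chain marks T cells more narrowly.

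The gamma, delta and epsilon chains of CD3 are encoded side by side in 40056 bases of chromosome 9 (GRCm38), yet their RNAs did not share 1 pattern in the allografts, so the DNA just upstream of each start is shown with that of the B cell gene Cd79a. Cd3g lies at chr9:44969572-44980431 on the minus strand, Cd3d at chr9:44981786-44987339 on the plus strand, and their starts are 1355 bases apart. Cd3e lies at chr9:44998740-45009627 on the minus strand, where its exons overlap the antisense gene Gm48719. Cd79a lies at chr7:24897381-24902197 on the plus strand. The 100 bases before each annotated start were read from RefSeq (GRCm38.p6), 5′ to 3′ on the strand of the gene. The Cd3e and Cd79a stretches end 16 and 116 bases before the RefSeq start. Capitals mark matches on either strand to an E-box (CAGNTG) or an ETS core (GGAAG).
Cd3g, chr9:44980432-44980531, minus strand: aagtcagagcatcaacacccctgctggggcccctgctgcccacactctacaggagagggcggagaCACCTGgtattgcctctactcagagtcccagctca
Cd3d, chr9:44981686-44981785, plus strand: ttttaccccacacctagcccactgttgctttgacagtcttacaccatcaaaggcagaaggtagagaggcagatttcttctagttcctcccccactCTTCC
Cd3e, chr9:45009628-45009727, minus strand: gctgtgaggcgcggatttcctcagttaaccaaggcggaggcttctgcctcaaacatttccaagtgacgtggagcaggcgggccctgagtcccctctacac
Cd79a, chr7:24897281-24897380, plus strand: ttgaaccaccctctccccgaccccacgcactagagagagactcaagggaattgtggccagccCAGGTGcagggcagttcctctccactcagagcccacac
The E-box letters stood in the Cd3g and Cd79a stretches and the ETS letters in that of Cd3d. Among 32851 RefSeq promoters, 20.8% of 100-base stretches held the E-box letters and 35.7% the ETS letters, so such a match is common. The exact letters CCCNNGGG of an EBF motif (in 5.27%) were also searched for and not found in these 4 stretches. Near matches were not counted, and the Cd79a stretch holds ctcaaggg, which differs from these letters at 1 position. The search therefore does not show that an EBF site is missing there. The RefSeq table held 7 of the 10 markers.

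The other markers are spread over the genome (GRCm38). Cd4 lies at chr6:124864692-124888221 (minus strand), Cd8a at chr6:71373427-71379173 (plus), Nkg7 at chr7:43437073-43438249 (plus), Gzmb at chr14:56258838-56262260 (minus), and Ms4a1 at chr19:11249675-11266241 (minus). Ighm, an immunoglobulin constant gene, lies at chr12:113418558-113422730 (minus). Foxp3, at chrX:7573644-7595245 (plus), shares exon positions with Ppp1r3f, Gm36995, Flicr and Ccdc22, and without strand their reads cannot be told apart.

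A few facts of the libraries bear on the values. Judged from the smallest values of genes with a single transcript, 1 fragment on a 2 kb transcript was worth 0.0270 to 0.0436 FPKM in the 9 tumor libraries and 0.0748 to 0.101 FPKM in the proximal tubule libraries, so values below about 0.1 FPKM rest on few fragments. The proximal tubule figures are uncertain: only 20 to 33.3% of the genes used lay near 1 fragment there, against 34.3 to 55.9% in tumors. The sources used here do not say that both sets of columns were made with the same tool and lengths, which every difference from these cells assumes. Primary tumors 2 and 3 held much normal kidney signal: 10 proximal tubule genes summed to 61681 and 14661 FPKM there, to 267 in primary tumor 1 and to 9312 to 9751 in the sorted cells. The metastases held lung signal, with 8 lung epithelial genes summing to 12381 to 19603 FPKM against at most 13.9 in any other library. Against proximal tubule cells the median gene stood 0.59 to 0.68 higher on the log2 scale in the tumor groups as deposited, but 0.18 to 0.37 lower once each library was rescaled to a common total. The share of higher genes among all calls moved with it, from 90.8, 78.9 and 75.6% in primary tumors, metastases and allografts to 35.9, 43.7 and 33.6%.

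**Figure D1:**
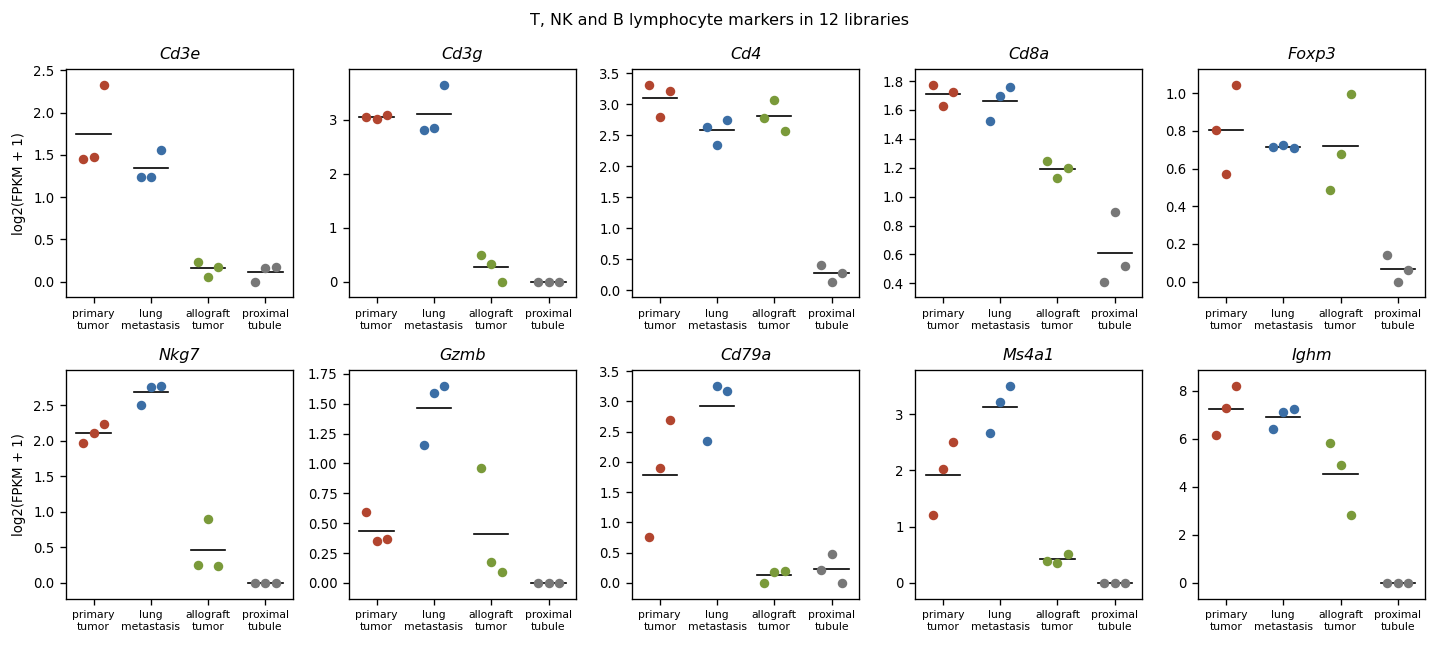
Level of the 10 lymphocyte markers, as log2(FPKM + 1) on the vertical axis (a separate scale in each panel), in the 3 libraries of each group; dots are libraries and lines are group means. Cd3e, Cd3g, Cd79a and Ms4a1 stand near 0 in allograft tumors, as does Nkg7 in all but 1 library, whereas Cd4 and Ighm do not.

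Changes below are differences of log2(FPKM + 1) ± SE with 3 libraries on each side, a scale that understates the change of weakly expressed genes. Rose and fell are used for genes with an adjusted p under 0.05 in limma, adjusted by Benjamini-Hochberg over all 16313 genes tested. Since the labels name no separate animals behind the replicates, each p reflects just the spread of these libraries, and that spread may be technical. Of the 10 markers 9 were tested. Foxp3 reached 1 FPKM in only 1 library and was not. Gzmb passed the filter through the 3 metastases alone, and Cd79a through 2 primary tumors and the 3 metastases alone. Cd3e, Cd3g, Nkg7 and Ms4a1 passed through the 6 primary tumor and metastasis libraries alone. All of these markers had to be low elsewhere. The counts and tests that follow therefore describe the tested markers without supporting a trend.

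Against sorted proximal tubule cells, 8 of 9 tested markers were higher in primary tumors (48.2% of all genes were called higher) and 9 of 9 in metastases (54.0% of all genes). In allograft tumors 4 of 9 were higher (52.2% of all genes): Cd4, Cd8a, Ighm and, just inside the threshold, Nkg7. In primary tumors the exception was Gzmb (limma, adjusted p = 0.128, and 0.0131 to 0.272 over the alternatives), and the higher Cd79a level (1.56 ± 0.42, adjusted p = 0.00997) rested on primary tumors 2 and 3, without which it was 0.54 (adjusted p = 0.219, and 5.92e-04 to 0.219 over the alternatives). In allografts Ighm had an adjusted p of 1.85e-04. Metastases exceeded primary tumors in 2 of 9 markers, Gzmb and Ms4a1 (11.3% of all genes). None was called lower by limma (9.59% of all genes), and at an unadjusted p under 0.05 the 2 directions together gave 5 of 9. Allograft tumors were below primary tumors in 7 of 9 markers (21.1% of all genes) and below metastases in 8 of 9 (13.3% of all genes). Cd4 was the tested marker not called in either of these, and Gzmb was the other one not called against primary tumors. The 3 comparisons with proximal tubule cells share the same control libraries, and each tumor group enters 3 comparisons. The median change of the 9 markers was 0.056 in metastases against primary tumors (0.0065 over all genes), -1.59 in allografts against primary tumors (-0.023 over all genes) and -2.22 in allografts against metastases (0.025 over all genes). In bulk tissue a lower level can mean fewer cells of a type or less RNA per cell, and these cannot be told apart.

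**Figure D2:**
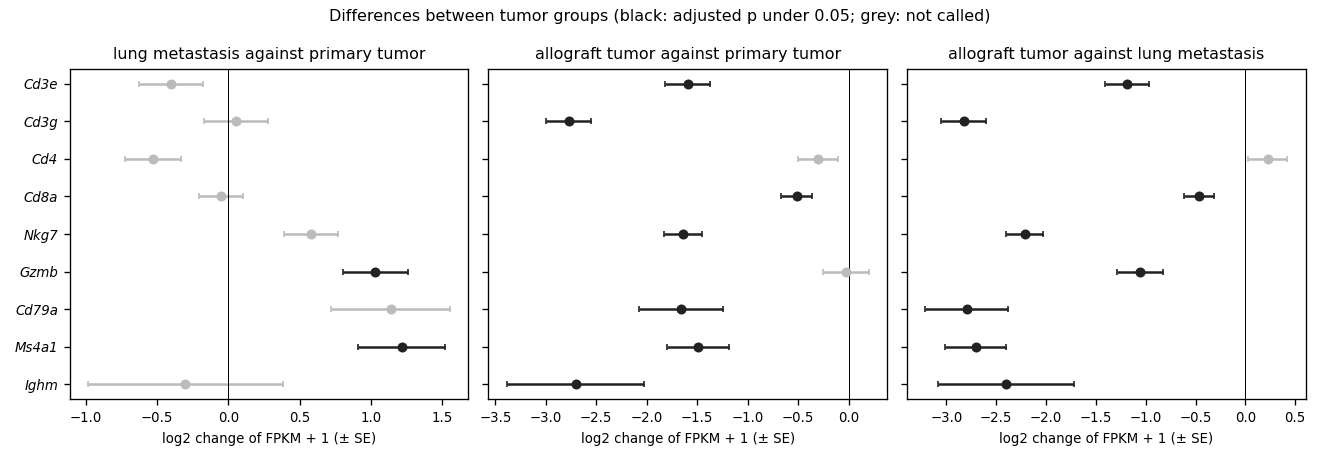
Difference in log2(FPKM + 1) ± SE of the 9 tested markers (horizontal axis, a separate scale in each panel) for the 3 comparisons between tumor groups; black marks an adjusted p under 0.05 and grey a difference not called. In allografts against primary tumors 7 markers are black and lie below 0, from -0.52 for Cd8a to -2.77 for Cd3g.

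Cd3g, the gamma chain of CD3, gave the clearest split between tumors of the 2 host types. Primary tumors 1 to 3 held 7.25, 7.04 and 7.51 FPKM, metastases 1 to 3 held 6.04, 6.16 and 11.6, and allografts 1 to 3 held 0.411, 0.254 and 0. The 3 proximal tubule libraries listed it at 0. Every primary tumor and metastasis library was thus above every allograft library. Cd3g fell by 2.77 ± 0.22 in allografts against primary tumors (limma, adjusted p = 4.61e-05) and by 2.83 ± 0.22 against metastases (adjusted p = 1.69e-05). Primary tumors and metastases overlapped and were not called different (0.06 ± 0.22, adjusted p = 0.886).

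Cd3e, the epsilon chain that pairs with both gamma and delta, was weaker, and it too was low in allografts. Primary tumors 1 to 3 held 1.73, 1.78 and 4.04 FPKM, metastases 1.37, 1.36 and 1.95, allografts 0.179, 0.0413 and 0.130, and proximal tubule cells 0, 0.119 and 0.129. Allograft and proximal tubule values overlapped and differed by 0.04 ± 0.22 (limma, adjusted p = 0.870). Cd3e fell in allografts by 1.59 ± 0.22 against primary tumors (adjusted p = 5.59e-04) and by 1.19 ± 0.22 against metastases (adjusted p = 0.00382). Primary tumor 3 was the highest of all 12 libraries.

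The remaining receptor chains, from a list of T cell genes, mostly shared the split. Trbc2, a constant gene of the receptor beta chain, stood at 15.3 to 16.3 FPKM in primary tumors, 16.8 to 21.9 in metastases, and 0.500, 1.5 and 0 in allografts 1 to 3. Cd247, the zeta signaling chain, stood at 2.14 to 4.20, 3.47 to 8.10 and 0.148 to 0.215 FPKM in the same groups. Trbc2 and Cd247 fell in allografts against primary tumors by 3.43 ± 0.27 (limma, adjusted p = 4.61e-05) and by 1.65 ± 0.26 (adjusted p = 0.00104). Cd247 passed the filter through primary tumors and metastases alone and had to be low in allografts, so its call is a description. Trac, the alpha constant gene, was lower too (-2.32 ± 0.34, adjusted p = 7.34e-04) but kept 2.89, 4.65 and 4.11 FPKM in the allografts. Of 20 rows for beta variable segments (Trbv), looked up after these values were seen, 16 to 18 were above 0 in each primary tumor and metastasis library, and 1, 1 and 4 in allografts 1 to 3. The alpha variable segments (Trav) separated less. Of 61 rows, 28 to 36 were above 0 in each primary tumor and metastasis library and 8, 11 and 11 in allografts, whose sums of 34.1, 30.9 and 62.0 FPKM reached into the primary tumor range of 56.4 to 71.8.

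Cd3d, the delta chain, was the exception in the complex. Allografts 1 to 3 held 2.55, 3.72 and 11.8 FPKM of Cd3d, on both sides of the other tumors, which ran from 5.69 to 7.44 FPKM (primary) and from 5.21 to 9.09 (metastases). Allograft 3 had the highest Cd3d level of the 12 libraries while Cd3g and Trbc2 were listed there at 0. The group difference from primary tumors was not called (-0.29 ± 0.39, limma, adjusted p = 0.589).

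Cd4, the coreceptor of helper and regulatory T cells, did not follow CD3. It stood at 8.96, 5.94 and 8.26 FPKM in primary tumors, 5.23, 4.06 and 5.74 in metastases, 5.84, 7.35 and 4.95 in allografts, and 0.317, 0.0982 and 0.212 in proximal tubule cells. The 3 tumor groups lay close together and all were far above the sorted cells. Cd4 rose against proximal tubule cells by 2.84 ± 0.20 in primary tumors (limma, adjusted p = 6.35e-06), by 2.31 ± 0.20 in metastases (adjusted p = 6.98e-06) and by 2.53 ± 0.20 in allografts (adjusted p = 5.14e-06). Allografts were not called different from primary tumors (-0.30 ± 0.20, adjusted p = 0.239) or metastases (0.23 ± 0.20, adjusted p = 0.459). Metastases lay below primary tumors in all libraries without passing the threshold (-0.53 ± 0.20, adjusted p = 0.0801, and 0.050 to 0.308 over the alternatives). Per FPKM of Cd4 the primary tumors held 0.808 to 1.19 FPKM of Cd3g, the metastases 1.16 to 2.02, and the allografts 0.0704, 0.0345 and 0.

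Cd8a, the CD8 alpha chain, took a middle course. Primary tumors held 2.42, 2.09 and 2.30 FPKM, metastases 1.87, 2.23 and 2.39, allografts 1.38, 1.19 and 1.30, and proximal tubule cells 0.330, 0.862 and 0.434. The allograft libraries lay between the other tumors and the sorted cells with no overlap on either side. Cd8a was lower in allografts than in primary tumors (-0.52 ± 0.15, limma, adjusted p = 0.0212), a call lost in 5 of 14 alternatives (0.0129 to 0.0965), among them without primary tumor 3 (0.0544) and without allograft 2 (0.0561). It was also lower than in metastases (-0.47 ± 0.15, adjusted p = 0.0499), a call lost in 11 of 13 alternatives (0.0318 to 0.164) and in every fit without a metastasis or allograft library. Its excess over proximal tubule cells (0.58 ± 0.15, adjusted p = 0.00592) became -0.043 when libraries were rescaled to a common total (adjusted p = 0.853, and 0.00244 to 0.853 over the alternatives).

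Its partner Cd8b1, the CD8 beta chain, separated from it in the allografts. Cd8b1 ranged from 1.76 to 2.17 FPKM in primary tumors and from 2.00 to 3.34 in metastases, and stood at 0.0455, 0.294 and 0.0661 in allografts 1 to 3. The ratio of Cd8a to Cd8b1 was 1.07 to 1.19 in primary tumors, 0.715 to 0.934 in metastases, and 30.3, 4.04 and 19.7 in allografts, where the denominator rests on few fragments. Sorted proximal tubule cells gave 7.13 and 3.32 in the libraries where Cd8b1 was above 0, again on few fragments. A ratio well above that of the other tumors was thus not particular to the allografts. Cd8b1 fell in allografts by 1.42 ± 0.16 against primary tumors (limma, adjusted p = 2.38e-04). It passed the filter through primary tumors and metastases alone and had to be low in allografts, so this call is a description.

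Markers of macrophages and of dendritic cells were present in the same allografts. Of these, the background above names only dendritic cell subsets as carriers of CD4 or CD8 alpha. The 10 macrophage genes summed to 6609, 3701 and 1742 FPKM in allografts 1 to 3, against 2849, 418 and 581 in primary tumors 1 to 3, and 6 of 10 were called higher (20.5% of all genes), C1qa among them (2.98 ± 0.72, limma, adjusted p = 0.00811). Of 8 dendritic cell genes 2 were higher (20.5% of all genes) and 3 lower (21.1%) in allografts than in primary tumors. Xcr1 and Flt3 of that list stood at 0.990 to 1.61 and 0.340 to 1.64 FPKM in allografts. Both lay below every primary tumor library (means 2.42 and 2.10) without a call. The 3 lower were Clec9a, Zbtb46 and Cd209a, Clec9a with means of 1.04 in allografts and 4.46 in primary tumors (limma, adjusted p = 0.0137). Itgax and Clec10a were the 2 higher, and Itgax stood at 23.6 to 59.3 FPKM in allografts. No defining macrophage marker was at 0 in any tumor library. The part of these cells in the Cd4 and Cd8a values was not tested.

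**Figure D3:**
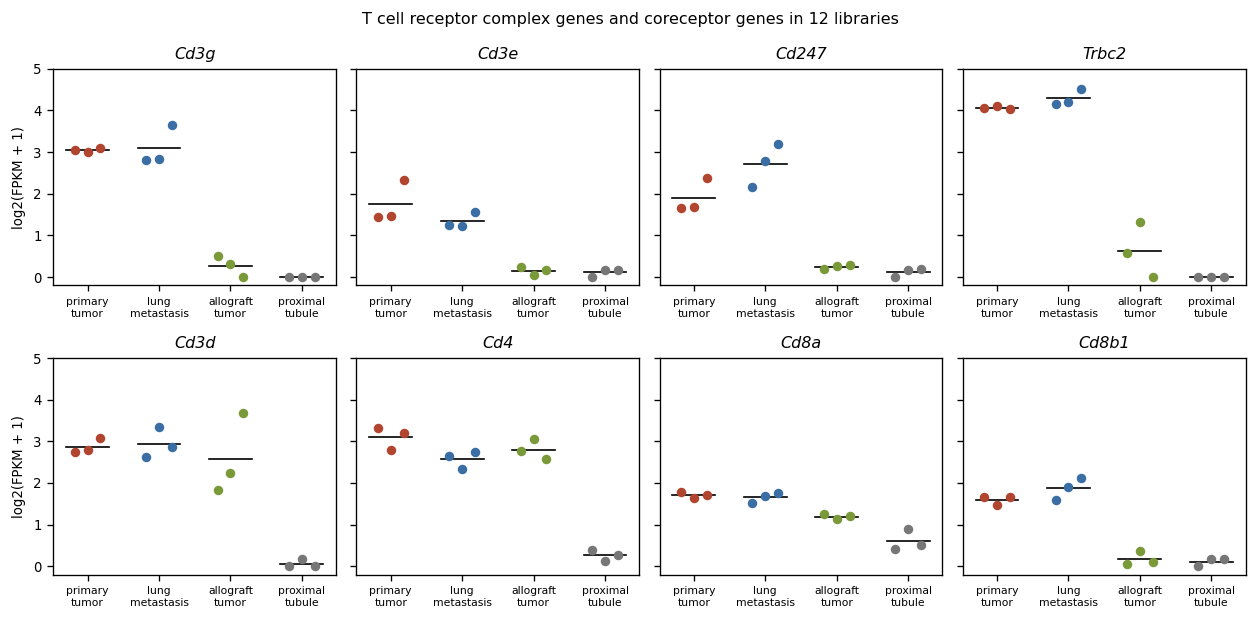
Level of 5 T cell receptor complex genes (Cd3g, Cd3e, Cd247, Trbc2, Cd3d) and 3 coreceptor genes (Cd4, Cd8a, Cd8b1), as log2(FPKM + 1) on 1 common vertical scale; dots are libraries and lines are group means. In allograft tumors Cd3g, Cd3e, Cd247, Trbc2 and Cd8b1 lie close to the sorted proximal tubule cells, and Cd3d and Cd4 lie among the other tumors.

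Foxp3, the transcription factor of regulatory T cells, was too low to test. Primary tumors held 0.743, 0.485 and 1.06 FPKM, metastases 0.638, 0.654 and 0.635, allografts 0.401, 0.600 and 0.990, and proximal tubule cells 0.103, 0 and 0.0422. The 3 tumor groups overlapped fully. Of 7 tested genes from a regulatory T cell list, 4 were lower in allografts than in primary tumors (21.1% of all genes), including the inhibitory receptor Ctla4 (-1.01 ± 0.14, limma, adjusted p = 4.77e-04) and the costimulatory receptor Tnfrsf18 (-1.51 ± 0.22, adjusted p = 7.41e-04). Ctla4 stood at 0.952 to 1.56 FPKM in primary tumors and 0.0312 to 0.147 in allografts, a separation that Foxp3 did not show. Of the 7 tested genes 2, Ctla4 among them, reached 1 FPKM in no allograft library and had to be low there. The count and the contrast with Foxp3 therefore lend no support to a trend.

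Across the 21 tested genes of the T cell list, which does not include the 10 markers, 19 were lower in allografts than in primary tumors (21.1% of all genes; median -1.11), and 18 were lower than in metastases (13.3% of all genes; median -1.26). No allograft library reached 1 FPKM for 10 of the 21, which passed the filter through other groups and had to be low there, so these counts lend no support to a trend. Between metastases and primary tumors 2 of 21 were higher, near the share of all genes (11.3%), the interleukin-7 receptor gene Il7r (0.96 ± 0.24, limma, adjusted p = 0.0201) and the adhesion receptor gene Cd2 (0.87 ± 0.24, adjusted p = 0.0295), and the median was 0.17. Over all genes the 3 medians were -0.023, 0.025 and 0.0065.

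Nkg7, a granule protein of NK and cytotoxic T cells, was lowest in allografts among the tumors. It stood at 2.89, 3.29 and 3.72 FPKM in primary tumors, 4.67, 5.76 and 5.83 in metastases, and 0.188, 0.864 and 0.180 in allografts, and proximal tubule libraries listed it at 0. No 2 groups overlapped. Nkg7 fell in allografts by 1.64 ± 0.19 against primary tumors (limma, adjusted p = 2.36e-04) and by 2.22 ± 0.19 against metastases (adjusted p = 2.94e-05). The higher level in metastases than in primary tumors missed the threshold (0.58 ± 0.19, adjusted p = 0.0533, and 0.0118 to 0.283 over the alternatives). The call against proximal tubule cells in allografts (adjusted p = 0.0490) was lost in 9 of 13 alternatives, among them without any 1 of the proximal tubule libraries and without allograft 2 (adjusted p = 0.185, and 0.00135 to 0.194 over the alternatives).

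Gzmb, which encodes the death-inducing protease granzyme B, was highest in metastases. Metastases 1 to 3 held 1.23, 2.01 and 2.14 FPKM, primary tumors 0.507, 0.274 and 0.293, and allografts 0.953, 0.126 and 0.0660, and proximal tubule libraries were listed at 0. Metastases lay above every other library, and allograft 1 stood apart from the other 2 allografts. Gzmb rose in metastases against primary tumors by 1.03 ± 0.23 (limma, adjusted p = 0.0118), a call lost without metastasis 2 (adjusted p = 0.0514), without metastasis 3 (0.0516) or without primary tumors 2 and 3 (0.231), within 0.00595 to 0.231 over the alternatives. It was lower in allografts than in metastases (-1.06 ± 0.23, adjusted p = 0.00783). Allografts and primary tumors were not called different (-0.03 ± 0.23, adjusted p = 0.936).

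Gzma, the companion granzyme A gene, stood at 1.37, 1.02 and 0.635 FPKM in primary tumors and 4.96, 8.58 and 15.1 in metastases (2.29 ± 0.32, limma, adjusted p = 8.56e-04). Every metastasis was above every primary tumor for Gzma. Gzma reached 1 FPKM in no allograft library and not in every primary tumor, so its call and this separation are descriptions. Of 14 tested NK and cytotoxic genes 4 were higher in metastases than in primary tumors (11.3% of all genes), with a median of 0.58 (0.0065 over all genes). Since 6 of the 14 would not have passed the filter without the metastases, this count and median are descriptions of the list alone. Ncr1, which encodes the NK receptor NKp46, stood at 0.503 to 0.666 FPKM in primary tumors, 1.02 to 2.42 in metastases and 0.393, 1.34 and 0.191 in allografts. All metastases also held lung epithelial RNA, as given above, and its part in these differences was not tested.

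For 5 of the 14 genes no allograft library reached 1 FPKM, so these had to be low there, and the count of lower genes is a description alone. Against primary tumors 5 of 14 genes of this list were lower in allografts (21.1% of all genes), led by the chemokine gene Ccl5 (-2.44 ± 0.40, limma, adjusted p = 0.00121), and 2 were higher (20.5% of all genes). Those 2 were Klra4 and Klra8, genes of the Ly49 receptor family. Klra4 stood at 15.0, 3.76 and 29.1 FPKM in allografts against 0.194 to 0.393 in primary tumors, and Klra8 at 25.1, 17.4 and 8.75 against 0.0633 to 0.622. Ly49 genes are near-identical copies that differ between mouse strains, so the assignment of reads to single members is uncertain. Gzmc, another granzyme gene of the list that did not pass the filter, stood at 7.65, 0.708 and 0.223 FPKM in allografts 1 to 3, and again allograft 1 stood apart.

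Cd79a, the signaling chain of the B cell receptor, was near 0 in allografts. Primary tumors 1 to 3 held 0.700, 2.74 and 5.45 FPKM, metastases 4.07, 8.58 and 7.97, allografts 0, 0.137 and 0.143, and proximal tubule cells 0.165, 0.385 and 0. Primary tumors differed widely among themselves, and primary tumor 1 was the lowest by far. Cd79a fell in allografts by 1.66 ± 0.42 against primary tumors (limma, adjusted p = 0.00967) and by 2.80 ± 0.42 against metastases (adjusted p = 9.53e-04). Without primary tumors 2 and 3, the libraries rich in kidney signal, the first difference was -0.64 (adjusted p = 0.236, and 3.19e-04 to 0.236 over the alternatives). Metastases and primary tumors overlapped (1.14 ± 0.42, adjusted p = 0.0766), and without primary tumors 2 and 3 the difference was 2.16 (adjusted p = 0.00643, and 0.00643 to 0.216 over the alternatives).

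Ms4a1, which encodes the B cell surface protein CD20, showed no overlap between groups. Primary tumors held 1.31, 3.06 and 4.71 FPKM, metastases 5.31, 8.33 and 10.4, and allografts 0.312, 0.275 and 0.435, and proximal tubule cells were listed at 0. Ms4a1 rose in metastases against primary tumors by 1.21 ± 0.30 (limma, adjusted p = 0.0203). That call was lost without metastasis 2 (adjusted p = 0.0730), without metastasis 3 (0.0808) and with only the 2 groups in the fit (0.117), within 0.00434 to 0.117 over the alternatives. Ms4a1 was lower in allografts than in primary tumors (-1.49 ± 0.30, adjusted p = 0.00350) and metastases (-2.71 ± 0.30, adjusted p = 1.64e-04). The call against primary tumors was lost without primary tumors 2 and 3 (-0.79, adjusted p = 0.0877, and 1.90e-04 to 0.0877 over the alternatives).

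Per FPKM of Cd3g, the Ms4a1 level was 0.181, 0.434 and 0.627 in primary tumors and 0.879, 1.35 and 0.895 in metastases. The Ms4a1 ratio was thus higher in every metastasis library than in every primary tumor library. The same ratio for Cd79a overlapped, with 0.0967, 0.389 and 0.725 in primary tumors and 0.674, 1.39 and 0.689 in metastases. On the list of B cell genes, 7 of 21 were higher (11.3% of all genes) and 1 lower (9.59%) in metastases than in primary tumors (median 0.65), with Cd79b, the signaling partner of Cd79a, first (1.42 ± 0.31, limma, adjusted p = 0.0101). The adaptor gene Blnk was the 1 lower (-0.98 ± 0.31, adjusted p = 0.0489). In allografts 13 of 21 were lower than in primary tumors (21.1% of all genes). Of these 21 genes 5 would not have passed the filter without the metastases, and 8 reached 1 FPKM in no allograft library. Cd72, a surface receptor gene on the same list, stood at 56.4, 30.3 and 23.5 FPKM there and was not called different from primary tumors (limma, adjusted p = 0.180).

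Ighm, the constant gene of the IgM heavy chain, was by far the most abundant of the 10 markers. It stood at 71.0, 157 and 296 FPKM in primary tumors, 85.0, 139 and 149 in metastases, and 55.6, 28.9 and 6.20 in allografts, and at 0 in all proximal tubule libraries. Allografts lay below every other tumor library, but they still held more Ighm than any library held of Cd3g, except allograft 3. Ighm fell in allografts by 2.71 ± 0.68 against primary tumors (limma, adjusted p = 0.010) and by 2.40 ± 0.68 against metastases (adjusted p = 0.0282). The first call was lost with only the 2 groups in the fit (adjusted p = 0.0743) and without primary tumors 2 and 3 (-1.65, adjusted p = 0.235), within 0.00341 to 0.235 over the alternatives. The second was lost in 5 of 14 alternatives, the replicate block (adjusted p = 0.0518) and the fits without metastasis 2 (0.0883), metastasis 3 (0.0949) or allograft 3 (0.0591) among them, within 0.0130 to 0.0949. Without allograft 3 the difference from metastases was -1.57. Metastases and primary tumors overlapped and were not called different (-0.30 ± 0.68, adjusted p = 0.791).

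In allografts 1 and 2 Ighm was set apart from the B cell receptor gene Cd79a. In allograft 3 the ratio of the 2 genes lay below that of every primary tumor. Allograft 1, with 55.6 FPKM of Ighm, listed Cd79a at 0. The ratio of Ighm to Cd79a ran from 54.3 to 101 among primary tumors, from 16.2 to 20.9 among metastases, and was 212 and 43.3 in allografts 2 and 3, where Cd79a rests on few fragments. Allografts 1 to 3 held 0.393, 0.475 and 0.174 FPKM of Ighm per FPKM of Ptprc, which encodes the pan-leukocyte protein CD45. Ptprc itself stood at 142, 60.8 and 35.6 FPKM in allografts 1 to 3, and its part in the Ighm values was not tested.

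Class-switched antibody genes were nearly absent from the allografts. Ighg2c, an IgG constant gene, stood at 20.9, 277 and 532 FPKM in primary tumors, 24.9, 30.9 and 85.7 in metastases, and 0.232, 0.162 and 0 in allografts. Primary tumors 2 and 3 were the highest libraries, and primary tumor 1 was below the metastases. Igha, the IgA constant gene, stood at 313, 365 and 248 FPKM in primary tumors, 86.7, 95.2 and 129 in metastases, and 0.481, 0.111 and 0.874 in allografts. Here primary tumor 1 was as high as the other two. Against primary tumors, allografts were lower in Ighg2c by 7.04 ± 0.94 (limma, adjusted p = 4.54e-04) and in Igha by 7.72 ± 0.47 (adjusted p = 1.31e-05). Of 13 tested immunoglobulin and plasma cell genes 9, Ighg2c and Igha among them, reached 1 FPKM in no allograft library. They passed the filter through other groups and had to be low there, so these differences are descriptions. The sorted proximal tubule libraries listed Igha at 0, 3.28 and 2.71 FPKM, above the allografts in 2 of 3.

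Between primary tumors and metastases the antibody genes did not move with the B cell genes. Igha fell in metastases by 1.57 ± 0.47 (limma, adjusted p = 0.0402), and Jchain, which joins IgA and IgM into polymers, fell by 1.64 ± 0.42 (adjusted p = 0.0219). Jchain stood at 43.8, 129 and 127 FPKM in primary tumors and 20.9, 27.8 and 37.6 in metastases. Ighd, the IgD gene of naive B cells, went the other way, with 1.47, 2.11 and 3.62 FPKM in primary tumors and 4.90, 10.3 and 11.1 in metastases (1.5 ± 0.29, adjusted p = 0.00643). Of 13 tested immunoglobulin and plasma cell genes 3 were lower (9.59% of all genes) and 1 higher (11.3%) in metastases (median -1.29). Without the metastases 2 of the 13 would not have passed the filter. Per FPKM of Ighm, primary tumors 1 to 3 held 0.294, 1.76 and 1.80 FPKM of Ighg2c, and metastases 0.293, 0.223 and 0.575. The high Ighg1, Ighg2b and Ighg2c values were those of primary tumors 2 and 3, which also carry the kidney signal, and its part in them was not tested.

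**Figure D4:**
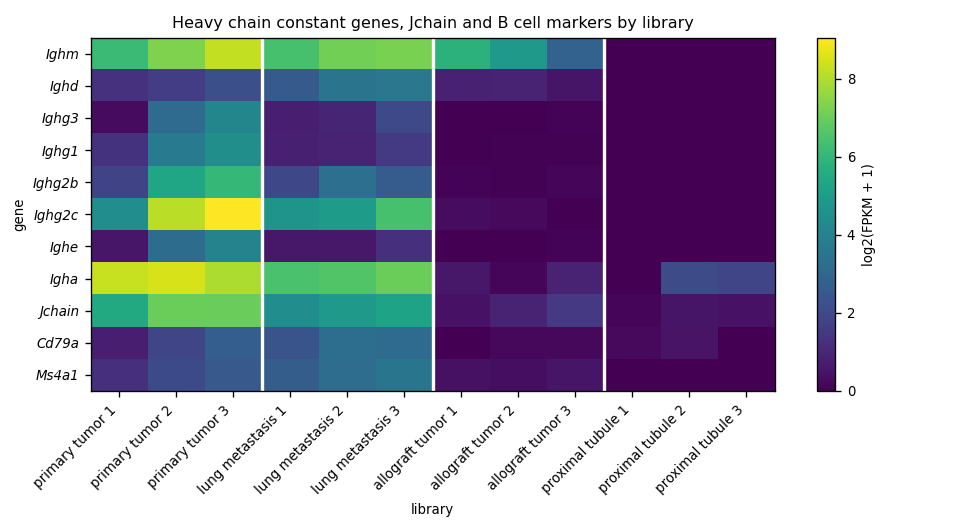
Color shows log2(FPKM + 1) of heavy chain constant genes, Jchain and the B cell markers Cd79a and Ms4a1 (rows) in the 12 libraries (columns; white lines separate groups). In allograft tumors Ighm stays visible while Ighg2c and Igha are near 0, and the IgG genes are highest in primary tumors 2 and 3.

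The general leukocyte level did not drop in the allografts in step with these markers. The 10 pan-leukocyte genes summed to 812, 275 and 323 FPKM in primary tumors 1 to 3, 756 to 859 in metastases, and 952, 506 and 259 in allografts. Only the integrin gene Itgal, used by lymphocytes to adhere, was lower in allografts than in primary tumors on that list (-1.45 ± 0.28, limma, adjusted p = 0.00254), and Ptprc was not called different (0.22 ± 0.45, adjusted p = 0.719). The T cell list summed to 107, 106 and 162 FPKM in primary tumors, 139 to 177 in metastases and 31.3 to 44.9 in allografts. The B cell list, of which Cd72 is a large part, summed to 100 to 163, 156 to 208 and 77.4 to 116 FPKM. Per FPKM of Ptprc the Cd3g level was 0.0752 to 0.189 in primary tumors, 0.0701 to 0.111 in metastases and at most 0.00417 in allografts. Primary tumors 2 and 3, poorer in leukocyte RNA than primary tumor 1, thus had the higher Cd3g share of it.

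**Figure D5:**
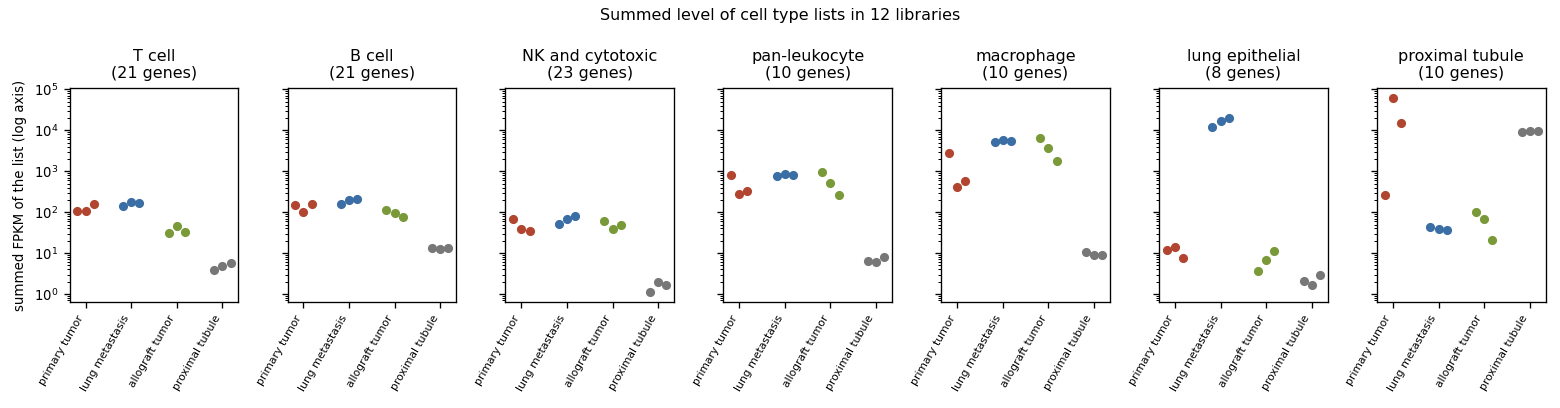
Summed FPKM of 7 cell type gene lists in the 12 libraries (log axis; dots are libraries). Allograft tumors are lowest of the tumors in the T cell list, overlap the primary tumors in the pan-leukocyte list, and the lung epithelial list is high in metastases only.

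Of 8 tested genes from a list for lymphoid tissue and germinal centers, 4 were higher in metastases (11.3% of all genes; median 0.80, against 0.0065 over all genes), and 2 of the 8 would not have passed the filter without the metastases. In allografts 3 of 8 were lower than in primary tumors (21.1% of all genes), led by the lymphotoxin gene Ltb (-1.91 ± 0.27, limma, adjusted p = 6.30e-04). For 2 of the 8 no allograft library reached 1 FPKM, so these had to be low there. Cxcl13, a chemokine gene that draws B cells, stood at 15.7, 47.4 and 23 FPKM in allografts and 13.6 to 19.7 in primary tumors, with no call (adjusted p = 0.203). Of 6 tested genes of V(D)J recombination, 1 was higher in metastases than in primary tumors (11.3% of all genes). It was Vpreb3, a B lineage gene (1.92 ± 0.27, limma, adjusted p = 9.26e-04). Vpreb3 passed the filter through the metastases alone and had to be low elsewhere, so the call is a description.

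The genes whose levels ran most nearly parallel to each marker over the 12 libraries were found among 14499 protein-coding genes by Pearson's r of log2(FPKM + 1), given as a description. Cd3g was closest to Icos, a T cell costimulatory receptor gene (r = 0.996), and Nkg7 to Cd2 (r = 0.994). Cd79a was closest to Blk (r = 0.987), a B cell kinase gene, and Ms4a1 was closest to Blk too (r = 0.989). Cd3e was closest to Nxpe2 (r = 0.979), Cd4 to Gcnt7 (r = 0.992), Cd8a to Il4i1 (r = 0.970), Gzmb to Dnah2 (r = 0.962), Foxp3 to Strc (r = 0.977) and Ighm to Alkbh6 (r = 0.985). The 12 points share their groups and depth, so any gene that separates the same groups scores high.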

How the data were processed

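RNA of 12 libraries was sequenced, and the authors deposited 1 table of FPKM values for 24432 genes. The submitters' processing notes name bcl2fastq 2.17.1.14, Salmon and the builds GRCm38 and mm10. The sources used here do not give gene lengths, library type or strandedness. Identifiers were matched to GENCODE M21, and 24189 had a symbol. A gene was tested if 3 or more of the 12 libraries held at least 1 FPKM of it (16313). limma 3.58.1 in R 4.3.3 was fitted to log2(FPKM + 1) over all 4 groups, without covariates and with eBayes using a mean-variance trend. The Benjamini-Hochberg adjustment ran over all tested genes of a comparison, and an adjusted p under 0.05 was a call. The fit was checked on simulated data. No fold is given against a group listed at 0. Depth was not stated and was estimated at 11.5 to 18.5 M (mega) fragments in tumor libraries and 4.96 to 6.68 M in proximal tubule libraries, the latter from 15 to 18 genes without clear single-fragment steps and therefore uncertain.

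Named genes are the 10 markers in full. Of each lymphocyte list, the rule takes the 3 most abundant members and the called members with the largest rise and fall in metastases and in allografts against primary tumors; of other lists it takes the first 2. It also takes the 3 most correlated genes per marker. Not all are printed, and some are not reported here. Genes outside the rule (Cd3d, Cd247, Cd8b1, Cd2, Ctla4, Ncr1, Gzmc, Itgal, Itgax, Clec9a, Zbtb46, Cd209a, Clec10a, Ighg2b and Trbv and Trav segments) were chosen after their values were seen. The markers and lists were chosen with earlier results of these data known. Results were recomputed with other pseudocounts (0.1, 5), another filter (none, 5 FPKM), other scalings (TPM, median-of-ratios), 2-group fits, a replicate block and each library left out in turn. Leaving out primary tumors 2 and 3 together was an alternative chosen after seeing the data.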

Additional observations from a re-analysis of the deposited data

How the results depend on the processing

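Over all alternatives, single-marker results kept direction and side of the threshold in 691 cases, lost their call in 43, gained one in 11 and changed sign in 14. Counts of called markers were 8, 9 and 4 for primary tumors, metastases and allografts against proximal tubule cells, 2 for metastases against primary tumors, and 7 and 8 for allografts against primary tumors and metastases. With a filter of 5 FPKM, which fewer markers pass, they were 5, 5, 2, 1, 4 and 4. The allograft count against proximal tubule cells was 7 with a pseudocount of 0.1, and 2 after rescaling to TPM or by median-of-ratios. With only the 2 groups in the fit, metastases against primary tumors gave 1 and allografts against primary tumors 4. Without primary tumors 2 and 3 allografts against primary tumors gave 3; the lone primary tumor was assumed to vary like the other groups. Leaving out 1 library, metastases against primary tumors gave 0 to 3: limma called 0 without metastasis 2 or 3, with 3 and 4 markers at an unadjusted p under 0.05. The causes were not tested.

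Of the sign changes 1 concerned a called difference, Cd8a in allografts against proximal tubule cells (-0.043 under TPM, and 0.31 by median-of-ratios with adjusted p = 0.127). The rest lay near 0 in the main fit. Gzmb in allografts against primary tumors was 0.0026 with a pseudocount of 5 and -0.31 to 0.13 leaving out 1 library. Cd3e in allografts against proximal tubule cells was -0.076 under TPM, -0.014 by median-of-ratios and -0.012 to 0.094 leaving out 1 library. Cd4 in allografts against metastases was -0.052 under TPM. Ighm in metastases against primary tumors was 0.76 without primary tumors 2 and 3 and -0.83 to 0.19 leaving out 1 library. The same ranges were -0.10 to 0.019 for Cd8a and -0.22 to 0.20 for Cd3g in metastases against primary tumors, and -0.22 to 0.016 for Cd79a in allografts against proximal tubule cells.

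Under TPM and median-of-ratios the median gene of allografts against primary tumors stood at -0.24 and -0.015, and higher genes were 31.9 and 49.7% of calls (49.3% as deposited); against metastases the shares were 17.5 and 41.3% (44.0%). By median-of-ratios higher genes were 58.6, 58.3 and 57.1% of calls in primary tumors, metastases and allografts against proximal tubule cells.

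The labels do not say whether same-numbered samples came from the same animals, and they were not treated as pairs. Over 18 same-numbered pairs, deviations from the group means correlated at -0.0433 to 0.0977, with 0 pairs above 0.1. With 3 libraries per group these correlations cannot decide whether the samples were paired. With the replicate block the counts of called markers were 8, 9, 4, 2, 7 and 6, the loss being Cd8a and Ighm in allografts against metastases (adjusted p = 0.0781 and 0.0518). Proximal tubule libraries had the lowest depth estimates, which are uncertain, so a marker listed at 0 there was not detected rather than absent.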
